A study of Mus musculus with 16 samples.

Results

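Basophil and mast cell progenitors were followed in c-Kit+ bone marrow of mice by single-cell RNA sequencing. A cell counted as a member when its unique molecular identifiers (UMIs, counts of captured transcripts) of Mcpt8, Prss34 and Ms4a2 added up to at least 5, among cells in which over 200 but under 6000 genes were seen and no more than 10% of UMIs were mitochondrial. The rule found 1019 members among 28155 kept cells of 6 c-Kit+ libraries, and 59346 cells were kept over the 12 marrow libraries read. Because the rule reads the abundance of these 3 genes, their levels and the share of cells that passed it are given as descriptions, with no test. The study compared 3 groups of BALB/c mice. WT mice bore no tumor and were not treated (labelled ctrl), vehicle mice bore 2208L tumors and received the vehicle, and IACS-70654 mice bore 2208L tumors and received IACS-70654, an inhibitor of the bromodomains of the acetyltransferases CBP and P300. The 2208L line is a transplantable, Trp53-null mammary tumor with triple-negative features. Per the labels, treatment lasted 7 days, with 3 days of drug followed by 2 days without, whereas the study's text describes a slightly shorter course for the marrow mice. Marrow of 3 mice was pooled per sample, and cells negative for lineage markers and DAPI and positive for CD45 and c-Kit were sorted. Each group had 2 libraries. The labels do not say whether these came from separate pools of mice, so the p-values measure the spread between libraries, which may be technical. The untreated group lacked both tumor and vehicle, so a difference between vehicle and WT cannot be told apart into these parts.

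Basophils and mast cells are granulocytes that carry the high-affinity IgE receptor FcεRI and store histamine and proteases in granules, which they release when bound IgE meets its antigen. Both descend from marrow progenitors that express the receptor KIT and the transcription factor GATA2, and interleukin-3 promotes basophil production. Mcpt8 and Prss34 encode serine proteases typical of mouse basophils. Ms4a2 encodes the β chain of FcεRI and is shared by basophils and mast cells. Fcer1a encodes the IgE-binding α chain, Cpa3 the granule enzyme carboxypeptidase A3, Hdc the histamine-forming histidine decarboxylase, Cd200r3 a surface receptor of both lineages and Cyp11a1 a steroid-producing enzyme.

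The 250 bases before the start of the 3 rule genes and of Cpa3, a granule gene that changed with IACS-70654, are shown because GATA factors drive this lineage. They come from RefSeq on build GRCm38.p6, read 5′ to 3′ on the strand of the gene, with matches to the GATA-type motif AGATAA or its reverse complement TTATCT in capitals. The windows are chr14:56085198-56085447 (minus strand) for Mcpt8, chr17:25298144-25298393 (plus strand) for Prss34, chr19:11623720-11623969 (minus strand) for Ms4a2 and chr3:20242182-20242431 (minus strand) for Cpa3.
Mcpt8 promoter: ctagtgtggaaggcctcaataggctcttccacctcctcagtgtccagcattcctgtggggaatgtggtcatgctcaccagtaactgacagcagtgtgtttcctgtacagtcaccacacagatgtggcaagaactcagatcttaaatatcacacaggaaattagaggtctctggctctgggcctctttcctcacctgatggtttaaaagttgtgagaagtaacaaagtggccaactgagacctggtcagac
Prss34 promoter: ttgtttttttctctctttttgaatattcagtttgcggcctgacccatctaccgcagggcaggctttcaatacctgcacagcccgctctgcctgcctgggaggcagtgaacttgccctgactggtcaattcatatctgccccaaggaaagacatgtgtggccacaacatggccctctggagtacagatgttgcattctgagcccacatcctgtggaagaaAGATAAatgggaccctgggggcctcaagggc
Ms4a2 promoter: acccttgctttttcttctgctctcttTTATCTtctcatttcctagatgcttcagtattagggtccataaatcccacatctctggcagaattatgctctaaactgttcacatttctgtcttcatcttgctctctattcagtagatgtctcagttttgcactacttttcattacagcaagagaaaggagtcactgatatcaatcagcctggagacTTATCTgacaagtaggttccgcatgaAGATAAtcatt
Cpa3 promoter: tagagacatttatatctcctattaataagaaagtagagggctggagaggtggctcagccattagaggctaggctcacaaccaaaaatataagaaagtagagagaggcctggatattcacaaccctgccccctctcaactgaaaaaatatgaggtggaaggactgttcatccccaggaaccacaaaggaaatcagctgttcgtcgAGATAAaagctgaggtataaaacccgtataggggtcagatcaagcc
Ms4a2 held 3 matches, with first bases at −224, −37 and −11 from the start. Prss34 held 1 at −31 and Cpa3 1 at −46, and the letters were not found in the Mcpt8 window. Of 8 progenitor genes looked up (the rule genes with Cpa3, Hdc, Fcer1a, Cd200r3 and Cyp11a1), 5 held a match, against 3281 of 32851 promoter windows of the same length (9.99%). A match is a description of letters and was not tested for binding.

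The 6 c-Kit+ libraries held between 27427163 and 68415534 UMIs, and kept cells had a median of 6712 to 9512 UMIs. No cell barcode was shared between libraries. In the study, cell suspensions were tagged with CellPlex oligos and samples were separated by tag during read processing. Libraries may therefore stem from a shared capture. Whether free RNA or wrongly assigned tags were shared between groups was not tested. Members had median UMI counts of 7723 and 7099 (WT), 7492 and 7606 (vehicle) and 6595 and 6103.5 (IACS-70654). Summed members of a pair of libraries correlated at 0.955 (WT), 0.985 (vehicle) and 0.904 (IACS-70654) across genes on a log scale, where genes are not independent replicates. Some sums rest on few cells: 34 in IACS-70654 replicate 2, 84 in WT replicate 2 and 87 in IACS-70654 replicate 1. Values below are in CPM, the UMIs of a gene per 1000000 UMIs in the summed members of a library.

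Mcpt8 and Ms4a2 were found in most members of every library, and Prss34 in fewer. A Mcpt8 UMI was found in 81.4% and 84.5% of WT members, 86.6% and 86.9% of vehicle members and 79.3% and 88.2% of IACS-70654 members, so the IACS-70654 range overlapped the others. For Prss34 the shares were 42.1% and 41.7% (WT), 46.9% and 50.5% (vehicle) and 24.1% and 20.6% (IACS-70654). For Ms4a2 they were 90.3% and 95.2% (WT), 87.9% and 84.3% (vehicle) and 74.7% and 70.6% (IACS-70654). Prss34 and Ms4a2 were thus found in the smallest share of members in both IACS-70654 libraries. Among all other c-Kit+ cells, at medians of 6717 to 9734.5 UMIs, 11.0% to 16.5% had a Mcpt8 UMI. Free RNA can give UMIs in cells that lack a gene, and its part in these shares was not tested. Cells with 1 to 4 rule UMIs had 123 CPM of Cpa3 and 22.3 CPM of Fcer1a, against 42.0 and 5.50 CPM in cells with 0. The cells just inside the threshold, 128 cells with 5 rule UMIs, had 541 CPM of Cpa3 and 210.0 CPM of Fcer1a. The 190 cells just outside, with 4 rule UMIs, had 453 CPM of Cpa3 and 149.9 CPM of Fcer1a.

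The members also carried genes of the basophil and mast cell lineage that the rule did not read, and transcripts of mature mast cells were absent or rare. The summed level of Cpa3, Hdc, Fcer1a, Cd200r3 and Cyp11a1 lay between 1894 and 3366 CPM in members and between 77.4 and 132.6 CPM in the other cells. A list of 12 basophil markers summed to 884 to 1344 CPM in members and 79.1 to 101.8 CPM in the others, with Mcpt9 at 0 in members. A list of 12 mast cell markers summed to 1281 to 2705 CPM in members, of which Cpa3 alone gave 1078 to 2455 CPM. The mast cell tryptases Tpsb2 and Tpsab1 and the receptors Mrgprb2 and Mrgprx2 were at 0 in the members of every library. Mcpt4, a chymase of connective tissue mast cells, was at 0 in WT and vehicle and at 1.36 and 11.3 CPM in IACS-70654. In those IACS-70654 libraries these values stand for only 1 and 3 UMIs. Cma1, another mast cell chymase gene, had 16 UMIs or fewer in a library, with 7.43 and 24.7 CPM in WT, 2.87 and 3.54 CPM in vehicle, and 2.72 and 0 CPM with IACS-70654. The name mast progenitor therefore rests mostly on genes that both lineages share, and the cells are called the progenitors here. Granulocyte RNA was also present: 12 neutrophil-lineage markers summed to 6623 and 5746 CPM (WT), 9372 and 9595 CPM (vehicle) and 8655 and 6724 CPM (IACS-70654) in members, against 6458 to 14803 CPM in the other cells. Whether this RNA was made by the progenitors was not tested.

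Cells that met the rule made up a larger share of c-Kit+ marrow in vehicle than in WT, and the smallest share with IACS-70654. In WT, 145 of 3875 cells (3.74%, 95% exact binomial interval 3.17% to 4.39%) and 84 of 3039 cells (2.76%, 2.21% to 3.41%) met the rule. In vehicle, 471 of 6571 cells (7.17%, 6.56% to 7.82%) and 198 of 2836 cells (6.98%, 6.07% to 7.98%) met it. With IACS-70654, 87 of 7517 cells (1.16%, 0.928% to 1.43%) and 34 of 4317 cells (0.788%, 0.546% to 1.10%) met it. The ranges of the 3 groups did not overlap, and the intervals cover counting error only. The mean share was 2.17-fold higher in vehicle than in WT, 0.137 times the vehicle share with IACS-70654, and 0.299 times the WT share with IACS-70654. These are shares of a sort gated on c-Kit, so fewer progenitors and more of the other sorted cells cannot be told apart. Less RNA of the rule genes per cell would also put cells under the threshold, and the rule cannot separate this from fewer cells. With the 5-UMI threshold applied after thinning each cell to 3000 UMIs the shares were 2.18% and 1.56% in WT, 4.79% and 5.17% in vehicle, and 0.606% and 0.490% with IACS-70654.

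The share of c-Kit+ cells picked by 5 genes outside the rule rose in vehicle against WT and fell with IACS-70654 against vehicle. A cell was counted when Cpa3, Hdc, Fcer1a, Cd200r3 and Cyp11a1 together had at least 5 UMIs. Such cells were 6.53% (5.77% to 7.35%) and 6.52% (5.66% to 7.45%) of WT, 10.4% (9.67% to 11.2%) and 9.80% (8.73% to 11.0%) of vehicle, and 6.05% (5.52% to 6.62%) and 5.74% (5.07% to 6.48%) of IACS-70654 cells. Both vehicle libraries stood above the other 4. On the log2 scale the share was 0.64 higher in vehicle than in WT (SE 0.10, adjusted p = 4.5e-06) and fell by 0.78 with IACS-70654 against vehicle (SE 0.095, adjusted p = 7.8e-08). The difference between IACS-70654 and WT was −0.14 (SE 0.11, adjusted p = 0.259). This p came from edgeR's quasi-likelihood test over 8 cell classes with 2 libraries a group. Exact permutation of 2 against 2 libraries cannot give a two-sided p below 0.333. This share too comes from a sort gated on c-Kit. A change in RNA of the 5 genes per cell would also move cells across the threshold. The share cannot separate these from a change in the number of progenitors.

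The pick of genes mattered for the comparison with WT. Without Cpa3, with at least 3 UMIs of the other 4 genes, a choice made after seeing the data, the log2 differences were 0.96 (vehicle minus WT), −1.61 (IACS-70654 minus vehicle) and −0.65 (IACS-70654 minus WT, adjusted p = 0.000146, edgeR). Of the cells picked by the 5 genes, 45.1% and 37.9% met the rule in WT, 56.2% and 57.2% in vehicle, and 12.3% and 9.27% with IACS-70654. In the other direction, 78.6% and 89.3% of WT members, 81.5% and 80.3% of vehicle members and 64.4% and 67.6% of IACS-70654 members had at least 5 UMIs of the 5 genes. The IACS-70654 values were the lowest in both directions, described with no test because the rule is part of them.

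**Figure D1:**
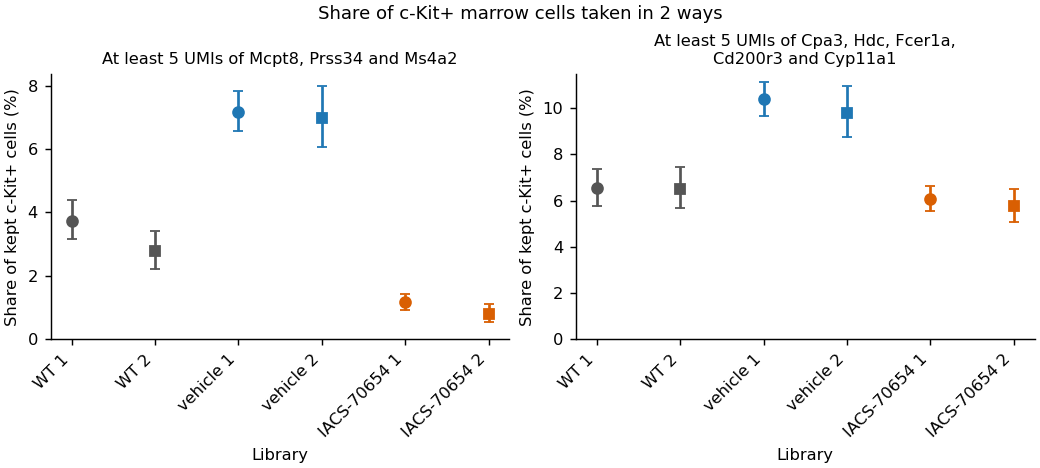
Share of kept c-Kit+ cells, in percent, in each of the 6 libraries, by the rule (Mcpt8, Prss34 and Ms4a2, at least 5 UMIs) and by 5 genes outside it; points are libraries and bars are 95% exact binomial intervals. By the rule the vehicle libraries sit at 7.17% and 6.98% and the IACS-70654 libraries at 1.16% and 0.788%, while by the 5 genes IACS-70654 (6.05% and 5.74%) sits just under WT (6.53% and 6.52%).

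With IACS-70654, a larger share of the members was near the threshold. Cells with 5 to 9 rule UMIs made up 41.4% and 33.3% of members in WT, 29.7% and 28.3% in vehicle, and 58.6% and 64.7% with IACS-70654. The median rule UMI count was 12 and 15 in WT, 20 and 28 in vehicle, and 8 and 7 with IACS-70654. Cells with at least 200 rule UMIs were 7.59% and 9.52% of members in WT, 14.4% and 10.6% in vehicle, and 10.3% and 11.8% with IACS-70654, where they numbered 9 and 4. The middle of the range, from 50 to under 200 rule UMIs, held 5.75% and 2.94% of IACS-70654 members, 5 cells and 1 cell, against 18.6% to 26.8% in the other 4 libraries. The members with IACS-70654 were therefore spread differently over the rule genes, which touches every comparison with that group below.

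Within the same range of rule UMIs, levels of other genes differed between the groups. Over all 5 to 9 UMI members of a group, Fcer1a was at 268 CPM in WT, 350.2 CPM in vehicle and 69.0 CPM with IACS-70654. In the same cells Csrp3, which encodes a muscle LIM protein, was at 468 CPM in WT, 437 CPM in vehicle and 69.0 CPM with IACS-70654. Elane, the neutrophil elastase gene, was at 666, 1098 and 1661 CPM in the same order. In members with 10 to 49 rule UMIs, Fcer1a was at 361 CPM in WT, 413 CPM in vehicle and 556 CPM with IACS-70654, and Elane at 971, 2114 and 296 CPM. Cpa3 was highest with IACS-70654 in every bin: 730.3, 445 and 1071 CPM at 5 to 9 rule UMIs (WT, vehicle, IACS-70654), 714, 688 and 4060 CPM at 10 to 49, 2215, 2063 and 5180 CPM at 50 to under 200, and 3836, 3776 and 6686 CPM at 200 or more. Hdac9, a class II histone deacetylase gene, was at 10.0, 22.3 and 214 CPM in the lowest bin. So among members with 5 to 9 rule UMIs, those with IACS-70654 had less Fcer1a and more Elane and Hdac9 than those of the other groups. These are group sums with no error.

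**Figure D2:**
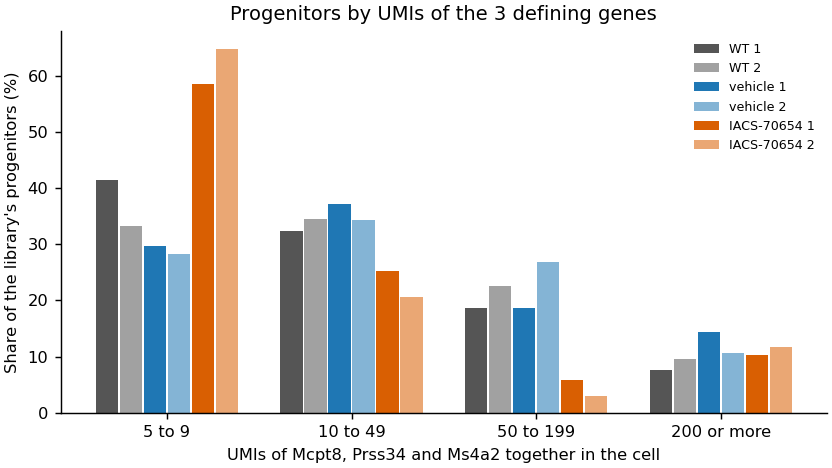
Progenitors split by their UMIs of the 3 rule genes, with bars for the share of the members of each library, in percent, in each bin. Cells with 5 to 9 rule UMIs are 58.6% and 64.7% of IACS-70654 members against 28.3% to 41.4% in the other libraries.

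In vehicle progenitors, the neutrophil-lineage genes Prtn3, Elane and Ms4a3 rose against WT. Of 8874 genes tested, 18 were called (0.203%), 13 higher (0.146%) and 5 lower (0.0563%). A call needed an adjusted p below 0.01 in edgeR's quasi-likelihood test and a log2 change larger than 0.5 in size. Prtn3, the proteinase 3 gene, was at 1401 and 803 CPM in WT and 2312 and 2383 CPM in vehicle (log2 change 1.07, SE 0.15, adjusted p = 0.0027). Elane was at 818 and 449 CPM in WT and 1342 and 1308 CPM in vehicle (log2 change 1.03, SE 0.16, adjusted p = 0.0051). Ms4a3, a marker of granulocyte and monocyte progenitors, was at 246 and 261 CPM in WT and 526 and 529.7 CPM in vehicle (log2 change 1.06, SE 0.13, adjusted p = 0.00087). The vehicle libraries lay above both WT libraries for all 3 genes. Of the 12 neutrophil-lineage markers, 7 could be tested, and these 3 rose and none fell. Mpo, the myeloperoxidase gene, passed the p but not the size (log2 change 0.38, adjusted p = 0.0057), and Ctsg had a log2 change of 0.27 (adjusted p = 0.227). Elane was not called at 10 or more rule UMIs (log2 change 1.09, adjusted p = 0.023), and DESeq2 called neither Prtn3 (adjusted p = 0.435) nor Elane (adjusted p = 0.698). With members also required to have at least 3 UMIs of Hdc, Fcer1a, Cd200r3 and Cyp11a1, 1 of the 7 markers (Ms4a3) was called, and Prtn3 and Elane had log2 changes of 0.65 (adjusted p = 0.018) and 0.67 (adjusted p = 0.057). The 10-UMI rule gave 4 of 7 called higher (Prtn3, Ms4a3, S100a8 and S100a9), with a median of 1.09. Of the eosinophil markers, all 5 tested had a positive change (median 0.81), none of them called, and at 10 or more rule UMIs 3 of 4 were called higher (Prg2, Prg3 and Epx; median 4.36). With the added requirement 2 of 4 eosinophil markers were called higher (Prg2 and Epx), and after thinning 1 of 2 (Prg2). Over all genes, 12 of 7660 were called higher at 10 or more rule UMIs, 7 of 8422 with the added requirement and 7 of 3593 after thinning. In the other c-Kit+ cells the same genes had log2 changes of 1.29 (Prtn3), 1.06 (Elane) and 1.43 (Ms4a3), and the part of free RNA from those cells in the result was not tested.

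The other genes that rose in vehicle had varied roles. Tex14, which encodes a protein of intercellular bridges in germ cells, went from 240.1 and 261 CPM in WT to 561 and 485 CPM in vehicle (log2 change 1.07, adjusted p = 2.8e-05). Hp (haptoglobin) rose by 1.08, Gadd45b (a stress-response gene) by 1.21, Alas1 (the first enzyme of heme synthesis) by 0.84 and Dmkn by 2.39 on the log2 scale. Selenom, Fkbp11, Sdf2l1 and Manf, which encode proteins of the endoplasmic reticulum, rose by 1.74, 1.05, 0.77 and 0.64. All of these were higher in both vehicle libraries than in both WT libraries. Genes named by size were picked on this condition, so it is no further support. Several calls were lost elsewhere: Hp had a log2 change of 0.37 after thinning to 3000 UMIs (adjusted p = 0.938) and 0.51 with the added lineage requirement (adjusted p = 0.553), Alas1 0.32 with that requirement (adjusted p = 0.733) and Gadd45b 0.68 after thinning (adjusted p = 0.873). Selenom and Fkbp11 were not called at 10 or more rule UMIs (adjusted p = 0.073 for each), and neither were Angpt1 (adjusted p = 0.088) and Itga4 (adjusted p = 0.391), which fell at 5 or more. Of the genes that fell, Angpt1, which encodes the ligand angiopoietin 1, was at 840 and 786 CPM in WT and 495 and 455 CPM in vehicle (log2 change −0.78, adjusted p = 0.0051). Itga4, the integrin α4 chain used for homing and retention in marrow, was at 344 and 378 CPM in WT and 234 and 212 CPM in vehicle (log2 change −0.68, adjusted p = 0.0075), and the synapse gene Nlgn1 had a log2 change of −2.63. None of the tested genes of the lists for IgE receptor signaling (15), granule mediators (12), growth and cytokine receptors (15), transcription factors (26) or MHC class I (20) was called by edgeR at 5 or more rule UMIs. Cebpe, a granulocyte transcription factor gene, was called higher at 10 or more (log2 change 2.46, adjusted p = 0.00042), and Fcer1a with the added lineage requirement, which reads it (0.54, adjusted p = 0.00088). At an unadjusted p under 0.05, 821 of all genes passed, and DESeq2 called 4. Without WT replicate 2 the count of 18 was 9, and without vehicle replicate 2 it was 10.

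In IACS-70654 progenitors, Cpa3, Il1rl1 and Mitf rose and Fcer1a, Nkg7, Ifitm1 and Ly6e fell against vehicle. Of 8874 genes, 113 were called (1.27%), 44 higher (0.496%) and 69 lower (0.778%). At an unadjusted p under 0.05, 1389 genes passed, and DESeq2 called 64. Leaving out IACS-70654 replicate 1, which held most of the members, left 37 calls. Without either vehicle library there were 72, and without a WT library 174 (replicate 1) and 170 (replicate 2). With members required to have at least 10 rule UMIs, 46 genes were called, 24 higher and 22 lower. Of the 113 genes, 25 were called again there, and 107 of the 110 with a value kept their sign. These stricter sums are small: at 10 or more rule UMIs they hold 36 and 12 IACS-70654 cells, after thinning 41 and 19. Some changes were not particular to the progenitors. In c-Kit+ cells with 0 rule UMIs, vehicle and IACS-70654 had 275 and 104 CPM of Nkg7, 396 and 180 CPM of Ifitm1 and 21.3 and 68.0 CPM of Cpa3. Srgn was at 1426 and 1036 CPM there and Cebpb at 83.6 and 53.6 CPM, 2 genes that also fell in members. Fcer1a was at 6.67 and 3.92 CPM there, Il1rl1 at 8.02 and 8.31 CPM and Mitf at 38.4 and 35.5 CPM. These are group sums with no error.

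Cpa3 was at 1227 and 1398 CPM in vehicle and 2340 and 2455 CPM with IACS-70654 (log2 change 0.81, SE 0.12, adjusted p = 0.00069). Il1rl1, the receptor of interleukin-33, was at 57.0 and 77.4 CPM in vehicle and 123.6 and 178 CPM with IACS-70654 (log2 change 1.05, SE 0.19, adjusted p = 0.0032). Mitf, a transcription factor that directs mast cell fate, was at 28.3 and 19.5 CPM in vehicle and 76.0 and 71.8 CPM with IACS-70654 (log2 change 1.48, SE 0.23, adjusted p = 0.00089). The groups did not overlap for any of the 3 genes. At 10 or more rule UMIs the log2 changes were 1.65 for Cpa3, 1.52 for Il1rl1 and 1.29 for Mitf (adjusted p = 0.13 for Mitf). At 3 or more rule UMIs the Cpa3 value reversed to −0.066, so its direction depended on the threshold. DESeq2 called neither Cpa3 (adjusted p = 0.107) nor Ifitm1 (adjusted p = 0.11). Without IACS-70654 replicate 1, Il1rl1 (adjusted p = 0.017) and Mitf (adjusted p = 0.147) were not called by edgeR, and Il1rl1 was not called without IACS-70654 replicate 2 (adjusted p = 0.029) or vehicle replicate 1 (adjusted p = 0.076) either.

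Regulatory genes were among the others that rose. Hdac9 was at 32.1 and 25.4 CPM in vehicle and 231 and 117 CPM with IACS-70654 (log2 change 2.63, SE 0.23, adjusted p = 2e-06; 2.27 at 10 or more rule UMIs). In c-Kit+ cells with 0 rule UMIs it was also higher with IACS-70654, at 101 CPM against 49.6 CPM in vehicle. Cdkn1a, the cell cycle inhibitor p21, was at 14.6 and 16.5 CPM in vehicle and 65.2 and 52.9 CPM with IACS-70654 (log2 change 1.94, adjusted p = 0.00010; 2.37 at 10 or more). Neither was called after thinning, with log2 changes of 1.90 for Hdac9 (adjusted p = 0.028) and 2.26 for Cdkn1a (adjusted p = 0.024), or without IACS-70654 replicate 1 (adjusted p = 0.013 and 0.083). Hs6st2 and Hs3st1, which encode heparan sulfate sulfotransferases, went from 8.15 and 5.32 CPM to 70.6 and 49.1 CPM and from 5.03 and 5.91 CPM to 32.6 and 30.2 CPM, both called. Id2, an inhibitor of basic helix-loop-helix factors, rose by 1.89, Meis1, a homeobox factor of stem and progenitor cells, by 0.82, and Prkcb, a protein kinase C, by 1.94. Malat1, a nuclear non-coding RNA, was at 7048 and 6868 CPM in vehicle and 11827 and 12877 CPM with IACS-70654 (log2 change 0.77). Tox, Tcf7l2, Robo1, Basp1 and Ddah2 also rose, from 11.0 CPM or less in the vehicle members. Hs3st1 and Malat1 were called again at 10 or more rule UMIs, with log2 changes of 3.34 and 1.13. Prkcb had 1.07 there (adjusted p = 0.396), Id2 1.87 (adjusted p = 0.092), Meis1 0.88 (adjusted p = 0.018) and Hs6st2 2.38 (adjusted p = 0.045), none of them called. Robo1, Basp1 and Ddah2 were not called either, and Tox, Tcf7l2 and Pde3a had no value. Pde3a had 2 UMIs in vehicle and 18 with IACS-70654, a ratio of CPM of 52.7 (95% exact interval 12.6 to 469, counting error only).

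Of the genes that fell, Nkg7, a granule membrane protein gene known from cytotoxic lymphocytes, was at 405 and 375 CPM in vehicle and 72.0 and 132 CPM with IACS-70654 (log2 change −2.18, SE 0.19, adjusted p = 2e-06). Ifitm1, which encodes an interferon-inducible membrane protein, was at 1506 and 1355 CPM in vehicle and 221 and 589 CPM with IACS-70654 (log2 change −2.05, SE 0.25, adjusted p = 9.2e-05). Ly6e, a surface protein gene, was at 883 and 971 CPM in vehicle and 419.6 and 491 CPM with IACS-70654 (log2 change −1.11, SE 0.11, adjusted p = 5.6e-06). These 3 also fell at 10 or more rule UMIs, by 1.76, 1.44 and 1.02 on the log2 scale. Fcer1a was at 626 and 671 CPM in vehicle and 300.1 and 344 CPM with IACS-70654 (log2 change −1.10, SE 0.11, adjusted p = 7.5e-06). Its sign turned with the threshold: at 10 or more rule UMIs the log2 change was 0.089 (adjusted p = 0.859). The granule genes Srgn (serglycin, the proteoglycan core of granules) and Cd63 (a granule membrane protein) fell by 0.65 and 0.89, and had changes of −0.18 and −0.23 at 10 or more rule UMIs, not called there.

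Further named genes fell at 5 or more rule UMIs, but of these, Ms4a3 alone was called at 10 or more (log2 change −1.71). Csf2rb, the common β chain of the receptors of interleukin-3, interleukin-5 and GM-CSF, fell by 0.99 on the log2 scale (adjusted p = 0.00092). Its near copy Csf2rb2 had a change of −0.88 (adjusted p = 0.071), and reads of the pair may be split. Ltb4r1, the leukotriene B4 receptor, fell by 2.43, Lair1, an inhibitory collagen receptor, by 2.37, and Tgfbr3 by 2.08. At 10 or more rule UMIs Ltb4r1 had a log2 change of −1.27 (adjusted p = 0.167), Lair1 −1.52 (adjusted p = 0.055) and Tgfbr3 −1.55 (adjusted p = 0.037), and after thinning Ltb4r1 had −0.67 (adjusted p = 0.722). Ly6c1 and Ly6c2, also near copies, fell by 3.52 and 2.52, with 4 and 0 UMIs and 8 and 0 UMIs in the IACS-70654 libraries. Fgf3 fell by 3.50, with 1 and 3 UMIs there, so the sizes of these falls are uncertain. Itga2b, an integrin of megakaryocytes and early progenitors, fell by 1.83. Epx, the eosinophil peroxidase gene, was at 68.5 and 97.4 CPM in vehicle and 6.79 and 3.78 CPM with IACS-70654 (log2 change −3.78), and at 44.6 and 3.09 CPM in WT, whose libraries lay far apart. It was the only called gene of 5 eosinophil markers tested, where Prg2 alone of 4 was called at 10 or more rule UMIs (log2 change −5.73), and after thinning the 2 that could be tested had positive changes, neither called. With the added lineage requirement both Prg2 (log2 change −5.48) and Epx (−3.64) were called lower. Eosinophil markers summed to 791.5 and 86.4 CPM in WT, 696 and 988 CPM in vehicle and 299 and 147 CPM with IACS-70654, with Prg2 the most abundant, and their part in the result was not tested. The transcription factor gene Cebpb fell by 0.91, Ms4a3 by 0.68 and Ms4a6c by 1.04. At 10 or more rule UMIs the changes were −0.57 for Cebpb, −0.57 for Ms4a6c, −0.71 for Csf2rb and −0.89 for Itga2b, with adjusted p between 0.175 and 0.478 (edgeR). Of the 7 neutrophil-lineage markers tested, Ms4a3 was the only one called lower (median −0.36), against 4 at 10 or more rule UMIs (Prtn3, Elane, Mpo and Ms4a3; median −1.06). After thinning 5 were called lower (these and Ctsg; median −0.94), and with the added lineage requirement the same 5 (median −0.73). Over all genes, 22 of 7660 were called lower at 10 or more rule UMIs, 25 of 3593 after thinning and 64 of 8422 with the added requirement.

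**Figure D3:**
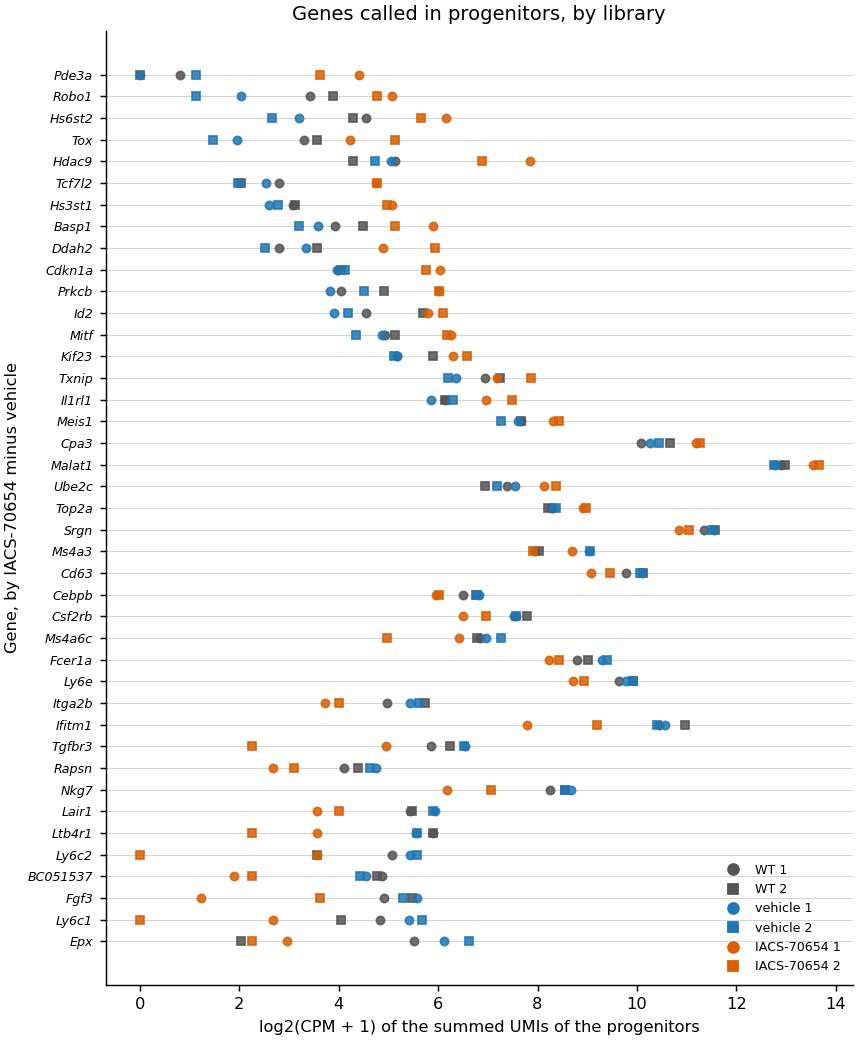
Level of the named genes in the progenitors of each library, on the x axis as log2(CPM + 1), ordered on the y axis by the log2 change between IACS-70654 and vehicle, with 1 point per library. Cpa3, Il1rl1, Mitf and Hdac9 are higher in both IACS-70654 libraries than in both vehicle libraries, and Nkg7, Ifitm1, Ly6e and Fcer1a are lower. Genes named by size were picked among those whose groups did not overlap.

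**Figure D4:**
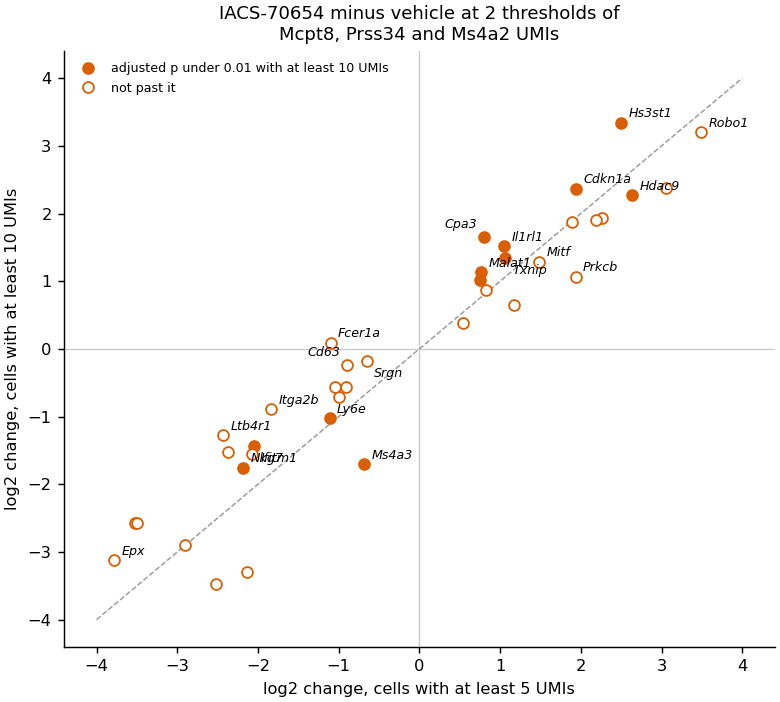
Log2 change of named genes between IACS-70654 and vehicle progenitors, for members with at least 5 rule UMIs (x axis) and at least 10 rule UMIs (y axis), with 1 point per gene and a dashed line where both are equal. Nkg7 (−2.18 and −1.76) and Cpa3 (0.81 and 1.65) keep their direction, whereas Fcer1a goes from −1.10 to 0.089.

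Most genes of the functional lists were not called, beside 1.27% called of all genes tested. Against vehicle, IACS-70654 changed 1 of 15 tested genes of IgE receptor signaling (Fcer1a, lower), 1 of 12 granule mediator genes (Srgn, lower), 2 of 15 growth and cytokine receptor genes (Il1rl1 higher, Csf2rb lower), 2 of 16 surface and adhesion genes (Cd63 and Ly6e, both lower) and 4 of 26 transcription factor genes (Mitf, Id2 and Meis1 higher, Cebpb lower). The lists' median log2 changes were −0.15, −0.31, −0.047, −0.22 and −0.031, beside 0.0034 over all genes tested. Some of these medians changed sign under stricter rules: at 10 or more rule UMIs they were 0.074 (IgE receptor signaling), −0.020 (granule mediators), −0.37 (growth and cytokine receptors), 0.50 (surface and adhesion) and 0.15 (transcription factors), beside −0.032 over all genes. With the added lineage requirement, which itself reads Hdc, Fcer1a and Cd200r3, they were 0.11, −0.22, −0.27, 0.30 and 0.049, beside −0.019. The list of basophil markers went from a median of −0.097 (1 of 10 called lower) to 0.50 at 10 or more rule UMIs (2 of 9 called higher, Hdc and Cd200r3). Fcer1g, the γ chain of FcεRI, had a change of −0.56 (adjusted p = 0.024), Kit of 0.56 (adjusted p = 0.066) and Gata2 of −0.36 (adjusted p = 0.106), all short of the threshold. Hdc, the histamine gene, stood at 158 and 176 CPM in vehicle and 205 and 261 CPM with IACS-70654 (log2 change 0.36, adjusted p = 0.18). Cd200r3 and Cyp11a1 had changes of 0.16 and −0.16. At 10 or more rule UMIs Hdc and Cd200r3 were called higher, with log2 changes of 1.32 (SE 0.17, adjusted p = 8.4e-05) and 1.15 (SE 0.21, adjusted p = 0.0047), and Cyp11a1 had a change of 0.38 (adjusted p = 0.554). Of the granule proteases other than the rule genes, only Cpa3 and Gzmb could be tested, and Gzmb was not called (log2 change 1.30, adjusted p = 0.23). With the added lineage requirement Gzmb was called higher against vehicle (log2 change 2.23, edgeR adjusted p = 5.3e-05). In vehicle against WT it was called lower with that requirement (−1.74, adjusted p = 0.00014) and after thinning (−1.97, adjusted p = 0.0016).

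Cytokine genes were low in these cells. Il13, Il5 and Csf2 were at 0 in all members, and none of the 10 cytokine and chemokine genes tested was called by edgeR in any comparison at 5 or more rule UMIs. With the added lineage requirement, 2 of 9 tested were called higher against vehicle (Ccl3 and Ccl4), beside 70 of 8422 over all genes. Il4 was at 10.4 and 21.6 CPM in WT, 18.7 and 20.1 CPM in vehicle, and 9.51 and 0 CPM with IACS-70654 (log2 change against vehicle −1.52, adjusted p = 0.155). Ccl4 was at 58.7 and 66.4 CPM in WT, 29.0 and 33.1 CPM in vehicle, and 63.8 and 49.1 CPM with IACS-70654, with a log2 change of −1.02 in vehicle against WT (adjusted p = 0.011). Neither target of the drug was called: Crebbp, which encodes CBP, had a log2 change of 0.40 (adjusted p = 0.092) and Ep300, which encodes P300, of −0.47 (adjusted p = 0.282) against vehicle. None of the 17 tested genes of a list of acetyl-lysine writers, readers and erasers was called against vehicle at 5 or more rule UMIs. That list did not hold Hdac9, a histone deacetylase gene that was called higher (log2 change 2.63). No gene was called either among those tested for MHC class I (20), interferon response (18) or oxidative phosphorylation (12). The interferon list did not hold Ifitm1, an interferon-inducible gene that was called lower (log2 change −2.05). After thinning 1 of 13 MHC class I genes tested, the chaperone gene Calr, was called lower (log2 change −0.61, adjusted p = 0.00086), beside 25 of 3593 over all genes.

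Some genes of mitosis rose with IACS-70654. Of 48 tested G2/M genes, 3 were called higher against vehicle (Top2a, Ube2c and Kif23; 0.496% of all genes were called higher) and none lower, and 43 had a positive change, with a median of 0.48. Top2a, the topoisomerase of chromosome condensation, was at 318 and 328 CPM in vehicle and 485 and 502 CPM with IACS-70654 (log2 change 0.54, adjusted p = 0.0036). The summed G2/M list was at 5550 and 5043 CPM in WT, 5892 and 5757 CPM in vehicle, and 7726 and 8272 CPM with IACS-70654, the highest in both IACS-70654 libraries. With each cell thinned to 3000 UMIs, a member had a mean of 13.9 and 13.9 G2/M UMIs in WT, 15.9 and 14.9 in vehicle, and 20.5 and 20.5 with IACS-70654. In the other cells of the same libraries the means were 13.4 and 13.1, 15.01 and 14.4, and 15.4 and 15.9. The member means took members picked before thinning, 82 and 33 cells with IACS-70654. The gene test after thinning took other sums, of cells with at least 5 rule UMIs left, 41 and 19 with IACS-70654. It called 0 of 28 G2/M genes, with a median of 0.11, and log2 changes of 0.17 for Top2a (adjusted p = 0.80) and 0.45 for Ube2c (adjusted p = 0.519). At 10 or more rule UMIs, 1 of 46 genes (Ube2c) was called and the median was 0.37. None of the 40 S phase genes was called, and their median was −0.10. At 10 or more rule UMIs the S phase median was −0.45, with 35 of 39 negative and none called, and with the added lineage requirement 1 S phase gene (Mcm6) was called lower.

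Against WT, Cpa3, Hdac9 and Cdkn1a rose and Nkg7, Ifitm1 and Fcer1a fell in IACS-70654 members at 5 or more rule UMIs. Of 8874 genes, 77 were called (0.868%), 32 higher (0.361%) and 45 lower (0.507%), and 18 without IACS-70654 replicate 1. This comparison shares the IACS-70654 libraries with the one against vehicle. Cpa3 was at 1078 and 1625 CPM in WT (log2 change 0.77, adjusted p = 0.0012), Hdac9 at 34.2 and 18.5 CPM (2.68, adjusted p = 1.3e-05) and Cdkn1a at 14.9 and 15.4 CPM (1.96, adjusted p = 0.00060). Cpa3 turned to −0.050 at 3 or more rule UMIs and was not called by DESeq2 (adjusted p = 0.115). After thinning Hdac9 (2.26, adjusted p = 0.064) and Cdkn1a (1.90, adjusted p = 0.195) were not called. Nkg7 was at 302 and 372 CPM in WT (log2 change −1.95, adjusted p = 1.1e-05), and Ifitm1 at 1386 and 2005 CPM (−2.29, adjusted p = 3.8e-05). Tyrobp, an adaptor of activating immune receptors, and Apoe, apolipoprotein E, had log2 changes of −1.57 and −1.503, both called. Ltb4r1, Lair1, Mc5r, Trf (transferrin) and Far2 fell by between 1.46 and 2.77. None of these 5 genes was called at 10 or more rule UMIs (adjusted p between 0.085 and 0.667), where Far2 had a change of −0.48 and Apoe of −0.84 (adjusted p = 0.022), also not called. Fcer1a was at 443 and 519 CPM in WT and fell by 0.66 (adjusted p = 0.0031), but had a change of 0.50 at 10 or more rule UMIs (adjusted p = 0.132). Elane rose by 0.86, with a change of −0.60 at 10 or more rule UMIs, and Alas1 by 1.15, with −0.14 there. Of the G2/M genes, 6 rose and none fell (Mki67, Top2a, Ube2c, Cenpf, Smc4 and Hmgb2), by between 0.50 and 0.96. Only Ube2c of the G2/M genes was called at 10 or more rule UMIs (1 of 46), and after thinning 0 of 28 were.

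Some genes changed differently in the progenitors and in the sum of all other c-Kit+ cells. These other cells mix lineages, and the mix differed between groups. Cells classed as neutrophil-lineage by marker genes were 1474 of 3875 and 1105 of 3039 kept cells in WT, and 3905 of 6571 and 1684 of 2836 in vehicle. With IACS-70654 they were 3539 of 7517 and 2011 of 4317. The part of this mix in the differences below was not tested. In a model with members and all other cells of each library, the vehicle minus WT change differed for 115 of 14903 genes (0.772%), 57 higher (0.382%) and 58 lower (0.389%) in members, and the IACS-70654 minus vehicle change for 93 (0.624%), 28 higher (0.188%) and 65 lower (0.436%). Without either vehicle library the first count was 47 (replicate 1) and 50 (replicate 2), and without WT replicate 2 it was 74. The second was 19 without IACS-70654 replicate 1, 35 without vehicle replicate 1 and 53 without vehicle replicate 2. With another scaling (RLE) the splits were 47 higher and 83 lower, and 34 higher and 44 lower. Mitf rose with IACS-70654 in members (1.48) and had a change of −0.13 in the other cells, a difference of 1.52 (SE 0.24). Cpa3 went up in both, by 0.81 in members and 1.10 in the other cells, where it was at 39.8 and 41.3 CPM in vehicle and 90.2 and 90.7 CPM with IACS-70654. The difference of −0.38 was short of the size for a call. Hdc had a change of −0.37 in vehicle members against WT and 0.55 in the other cells, a difference of −0.87 (SE 0.12, adjusted p = 2e-09).

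The same rule found a smaller share of cells in the CD45+ sort of marrow, with higher levels of the defining genes. It found 43 of 4579 (0.939%) and 47 of 4394 (1.07%) cells in WT, 26 of 5112 (0.509%) and 29 of 6087 (0.476%) in vehicle, and 21 of 4865 (0.432%) and 18 of 6154 (0.292%) with IACS-70654. In vehicle the share was thus lower than in WT in this sort and higher than in WT in the c-Kit+ sort. Median rule UMIs per cell were 102 and 118 in WT, 212 and 143 in vehicle, and 89 and 66.5 with IACS-70654. Cd200r3 was at 961 and 1044 CPM in WT, 872 and 785 CPM in vehicle, and 937 and 723 CPM with IACS-70654, against 54.3 to 104.6 CPM in the c-Kit+ members. These cells came from separate libraries and their genes were not tested.

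Several differences had the same direction there. Cpa3 was at 2217 and 2427 CPM in vehicle and 4102 and 5263 CPM with IACS-70654, and Il1rl1 at 128 and 95 CPM and 232 and 258 CPM. Nkg7 was at 425 and 337 CPM in vehicle and 36.9 and 57.4 CPM with IACS-70654, and Lgals1, which encodes galectin-1, at 1700.4 and 1348 CPM and 600.3 and 895 CPM. None of these 4 genes overlapped between the groups. Mitf was at 33.0 and 24.5 CPM in vehicle and 57.9 and 86.1 CPM with IACS-70654, and Ifitm1 at 1422 and 1333 CPM and 1053 and 488 CPM, also without overlap. Fcer1a did overlap, at 1429 and 788 CPM in vehicle and 800.4 and 1033 CPM with IACS-70654. Hdac9 was at 11.0 and 0 CPM in vehicle and 15.8 and 17.2 CPM with IACS-70654, far below its level in the c-Kit+ members. Mki67, a gene of dividing cells, was at 399 and 466 CPM in vehicle and 84.3 and 166 CPM with IACS-70654, the opposite order to the c-Kit+ members, where it was at 236 and 234 CPM and 349 and 400.4 CPM. Lgals1 was also lower in c-Kit+ cells with 0 rule UMIs, at 1001 CPM in vehicle and 405 CPM with IACS-70654. Those 2 values are group sums with no error.

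**Figure D5:**
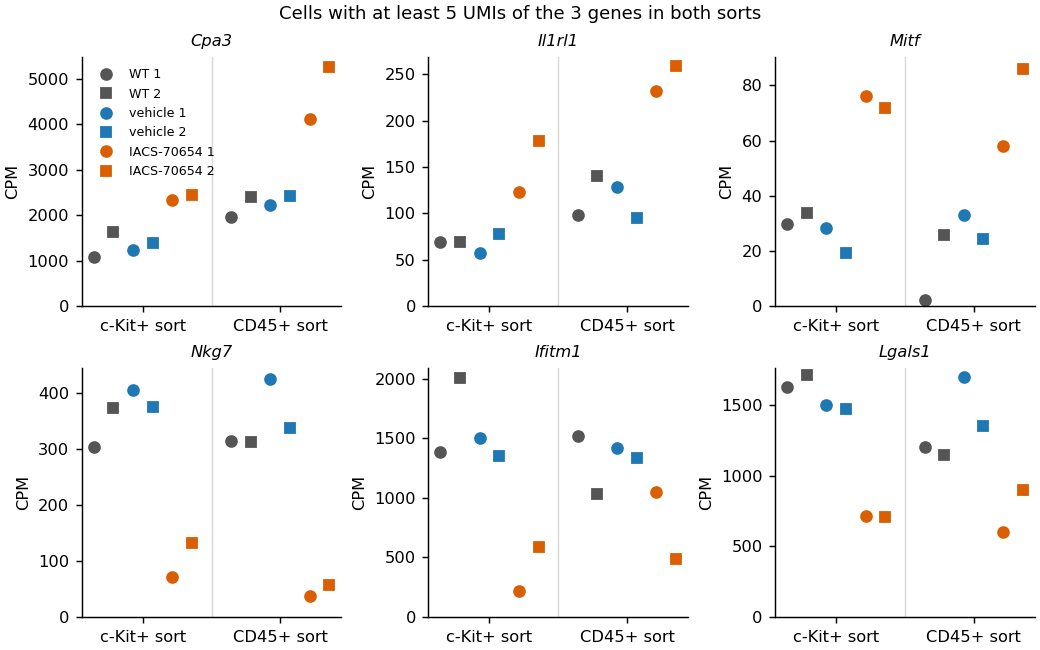
Level of Cpa3, Il1rl1, Mitf, Nkg7, Ifitm1 and Lgals1 (CPM in the summed cells that met the rule, linear axes from 0) in the c-Kit+ and CD45+ sorts, with 1 point per library. In either sort Cpa3, Il1rl1 and Mitf are higher and Nkg7, Ifitm1 and Lgals1 lower in both IACS-70654 libraries than in both vehicle libraries.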

How the data were processed

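The files hold UMI counts per gene and cell that the authors deposited as 10x matrices, per the file headers from Cell Ranger 7.2.0. The processing notes name build mm10. Values are raw counts, with no normalization. Members and gene lists were chosen with earlier results of these data known. Kept cells had over 200 but under 6000 genes and no more than 10% mitochondrial UMIs. UMIs of members were summed per library and tested with edgeR 4.0.16 (quasi-likelihood, low-count filter, TMM scaling, the 3 groups of 2 libraries sharing the spread, Benjamini-Hochberg), in R 4.3.3 with limma 3.58.1. The 3 rule genes were kept in the scaling and in the adjustment over 8877 genes, but not among the 8874 counted. Calls needed an adjusted p below 0.01 and a log2 change larger than 0.5 in size. Shares by 5 genes were tested with edgeR on counts of cells, with the number of kept cells as offset, at an adjusted p under 0.05. The response of members against other cells was tested with the library as a block. The study's own test treated cells as replicates and was not used. Named genes are up to 12 per direction by size among called genes whose groups did not overlap, called genes of the lists, list members needed to account for a list, and up to 8 per direction for the difference from other cells. Genes without a symbol of known role were counted only, and 1 gene that the rule names is not reported here. Scrublet (scanpy 1.11.5) marked 0% to 0.141% of cells and no member, so this step in effect removed no doublets. The study had separated samples by tag beforehand, and how many doublets remained is not known. The scripts were tested on simulated data. Alternatives were DESeq2 1.42.0, RLE scaling, no filter, other thresholds, thinning to 3000 UMIs, a replicate block and each library left out. A requirement of at least 3 UMIs of Hdc, Fcer1a, Cd200r3 and Cyp11a1 was added after seeing the data. Tumor libraries were not analysed here. Depth was 27427163 to 68415534 UMIs per c-Kit+ library. Intervals are exact binomial or exact Poisson and cover counting error only.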

Additional observations from a re-analysis of the deposited data

Results flagged for a closer look

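The genes below changed differently in the progenitors and in all other c-Kit+ cells of the same libraries, by the test of that difference itself (edgeR, library as a block, adjusted p under 0.01). Values are differences of log2 changes, progenitors minus other cells. The mix of lineages in the other cells differed between groups, and its part in these values was not tested. For vehicle minus WT, the genes with more change upward in the progenitors were Ccnb1ip1 (2.42), Pf4 (2.04), a platelet chemokine gene, Dapk2 (2.03), Hemgn (1.91), Ces2g (1.63), Phospho2 (1.62) and Tgfbr3 (1.45). Pf4 had 18 and 10 UMIs in WT members and 96 and 141 in vehicle members. Mgll had a fitted difference of 10.37, which is no bound because WT members had 0 UMIs of it. Against a floor of 3 counts over the group, Mgll was at least 3.17-fold higher in vehicle members, which had 28 UMIs.

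On the lower side of the same comparison were Ighg1 (−5.22), Iglc1 (−2.73), Rnf43 (−1.73), Gzmb (−1.66), S100a9 (−1.61), S100a8 (−1.58), Nlgn1 (−1.52) and Prkcb (−1.30). Ighg1, an immunoglobulin heavy chain gene, had only 2 and 2 UMIs in WT members and 5 and 0 in vehicle members, and in the other cells it was at 15.1 CPM in vehicle replicate 1 and 0.807 CPM in vehicle replicate 2. S100a8 and S100a9, calprotectin genes of neutrophils, had log2 changes of −0.0067 and 0.15 in members and 1.64 and 1.88 in the other cells. Members of the first WT library had 197 S100a8 UMIs and those of the second 7. Iglc1, an immunoglobulin light chain gene, had 176 of its UMIs in members of vehicle replicate 1. Gzmb, the granzyme B gene, had 57 and 74 UMIs in WT members and 108 and 10 in vehicle members.

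For IACS-70654 minus vehicle, the higher side held Pde3a (4.02), Gzmb (3.97), Hs6st2 (3.18), Robo1 (2.58), Tox (2.05), Ccr2 (1.78), Mitf (1.52) and Prkcb (1.5). Gzmb had a log2 change of 1.30 in members and −2.76 in the other cells. Ccr2, a monocyte chemokine receptor gene, had 0.28 in members and −1.58 in the others. The lower side held Pcdh7 (−3.001), Fgf3 (−2.99), Klf1 (−2.66), S100a9 (−2.30), Epx (−2.14), S100a8 (−2.08) and Itga2b (−1.98). S100a8 had a change of 0.27 in members and 2.31 in the other cells. Klf1, an erythroid factor gene, had 100 UMIs in vehicle members and 3 with IACS-70654, a ratio of CPM of 0.176 (95% exact interval 0.0357 to 0.529). Pcdh7 had 59 UMIs in vehicle members and 3 with IACS-70654, a ratio of 0.298 (0.0598 to 0.914). Nwd1 had a fitted difference of −10.77, which is no bound because IACS-70654 members had 0 UMIs. Against the same floor it was at least 2.73-fold lower than in vehicle members, which had 48.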

How the results depend on the processing

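The share by 5 genes kept its direction and its side of the threshold against WT in vehicle, and against vehicle with IACS-70654, under all 12 alternatives run. The IACS-70654 minus WT value went past the threshold when cells were thinned to 3000 UMIs (log2 −0.38) and without Cpa3 (−0.65). The log2 ratio of shares by the rule, IACS-70654 to vehicle, was −1.85 at 3 or more rule UMIs and −3.73 at 10 or more, and IACS-70654 to WT −0.84 and −2.41. Gene counts for vehicle against WT were 4 with DESeq2, 66 with no low-count filter, 86 at 3 or more rule UMIs, 10 after thinning and 9 to 25 with 1 library left out. For IACS-70654 against vehicle they were 64, 253, 407, 48 and 37 to 174, and 46 at 10 or more rule UMIs. For IACS-70654 against WT they were 180 with no filter, 405 at 3 or more rule UMIs, 19 after thinning and 18 to 100 with 1 library left out. The counts for a different response in members were 26 and 15 (vehicle minus WT, IACS-70654 minus vehicle) with DESeq2, 56 and 52 at 10 or more rule UMIs, and 47 to 125 and 19 to 89 with 1 library left out, and the second was 288 at 3 or more. More or fewer cells, genes or libraries entered under these rules, and the cause of other shifts was not tested.

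Reversed values against vehicle were 0.089 for Fcer1a at 10 or more rule UMIs and −0.066 for Cpa3 at 3 or more. Against WT, at 10 or more, they were −0.14 for Alas1, −0.021 for Vav3, 0.50 for Fcer1a and −0.60 for Elane. Fcer1a was at 0.077 and Elane at −0.13 when members also had at least 3 UMIs of Hdc, Fcer1a, Cd200r3 and Cyp11a1. Adgrl4 was at −0.080 and Vav3 at −0.047 after thinning, and Cpa3 at −0.050 at 3 or more rule UMIs. For the named genes, 161 values for vehicle against WT kept their direction and side of the threshold and 72 lost the call alone, against 504 and 152 for IACS-70654 against vehicle (2 more reversed), and 454 and 142 for IACS-70654 against WT (9 more reversed).

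Libraries of different groups shared only a replicate number: deviations of same-numbered libraries correlated at 0.027, 0.041 and 0.013 between groups. With the replicate block, 13, 98 and 79 genes were called (vehicle against WT, IACS-70654 against vehicle, IACS-70654 against WT), and the log2 differences of the 5-gene share were 0.64, −0.78 and −0.14. The model of members against other cells already holds the library as a block. Depth limits the smallest sums most, with 34 cells in IACS-70654 replicate 2, 84 in WT replicate 2 and 87 in IACS-70654 replicate 1, and the IACS-70654 sums hold 36 and 12 cells at 10 or more rule UMIs and 41 and 19 after thinning.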
